A study of Mus musculus with 6 samples.

Results

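A list of 36 genes that mark macrophages or carry out macrophage functions was followed in mammary tumours of mice with and without an endotrophin transgene. The members were chosen by gene symbol, and all probes assigned to a member in the platform annotation were taken. This gave 59 of the 45281 probes and 35 of the 36 genes, out of 19057 genes with a named probe. Cd68 had no probe assigned to it, so its expression was not analysed here. A probe was tested if its intensity was above a background limit of 94.0 on at least 3 of the 6 arrays, which 45 member probes and 31 member genes passed. Each of these 31 genes is represented by its probe of highest mean level, and values are log2 of the background-corrected intensity after an offset of 16, on which scale the background limit is 4.61.

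The PyMT/ETP tumours (also labelled PyMT/C5; 3 samples) carried PyMT together with an endotrophin transgene, and the PyMT control tumours (3 samples) carried PyMT without it. PyMT is the polyomavirus middle T antigen, driven in mammary epithelium by the mouse mammary tumour virus promoter, and endotrophin is a fragment cleaved from the end of the collagen VI alpha 3 chain. All mice were females of the pure FVB strain aged 12 weeks, and all samples were whole tumour tissue. The promoter of the endotrophin transgene is not given in the sources used here, and no named probe was assigned to Col6a3, so the transgene could not be checked. Whether the 6 samples come from 6 mice is not stated in the labels, and a tumour named below stands for its sample. The tests therefore measure the spread between samples, which may in part be technical, and the number of arrays limits their precision.

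Macrophages are phagocytes that arise from monocytes or from cells seeded in the embryo, and depend on colony-stimulating factor 1 (encoded by Csf1) acting through its receptor (Csf1r) and on the transcription factor PU.1 (encoded by Spi1). They bind and engulf antibody-coated, complement-coated or dying material through Fc, complement and scavenger receptors and digest it with lysozyme and lysosomal enzymes. In PyMT mammary tumours, macrophages are a well known stromal population, and loss of Csf1 is known to slow the progression of these tumours.

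PU.1 binds purine-rich DNA around a GGAA core, and the letters GAGGAA were therefore looked for on both strands of the RefSeq promoter windows (GRCm38.p6), which run from 250 bases before the start of an annotated transcript to 50 bases after it. Of the 25 members that had such a window, 14 held the letters, or 56.0%, against 31.25% of the 27025 genes in the table. These members include Cd68, Itgam and Cybb, whose expression was not tested. Matches are a description of the letters and do not show binding. The last 120 bases before the start are printed here for 4 tested members of different roles whose match lies in that stretch and whose stretch ends where the annotated gene begins. For Laptm5, Aif1 and Fcgr3 the start used lies inside the annotated gene, and their stretches are not shown. They read 5′ to 3′ on the gene's strand, and capitals mark GAGGAA or, where it lies on the opposite strand, TTCCTC.
Fcgr1: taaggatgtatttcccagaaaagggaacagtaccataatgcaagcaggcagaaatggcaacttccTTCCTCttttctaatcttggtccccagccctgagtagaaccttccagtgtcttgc
Mrc1: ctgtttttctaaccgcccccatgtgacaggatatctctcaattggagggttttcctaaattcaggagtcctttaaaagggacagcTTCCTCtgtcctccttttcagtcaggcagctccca
C1qb: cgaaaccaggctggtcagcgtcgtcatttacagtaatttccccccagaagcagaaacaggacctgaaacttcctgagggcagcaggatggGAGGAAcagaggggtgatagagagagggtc
Trem2: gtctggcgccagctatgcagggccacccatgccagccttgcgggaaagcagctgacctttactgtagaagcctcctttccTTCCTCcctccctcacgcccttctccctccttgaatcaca

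The stretches lie at chr3:96293970-96294089 on the minus strand for Fcgr1 and chr2:14229294-14229413 on the plus strand for Mrc1. Those of C1qb and Trem2 lie at chr4:136886201-136886320 (minus) and chr17:48346281-48346400 (plus). The match nearest to the start began 30 bases before it in C1qb, 35 in Mrc1, 40 in Trem2 and 55 in Fcgr1. Over these last 120 bases, 8 members and 13.22% of all genes held the letters. Among the members whose windows held no match were Lyz2, Mpeg1, Cx3cr1, Fcgr2b, Csf1 and Gpnmb. A further 11 members had no window, among them Spi1, Adgre1 and Lst1.

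Most macrophage genes were slightly higher in PyMT/ETP than in PyMT control tumours, and none passed the test. Of the 31 tested members, 23 (74.2%) had a positive log2 difference, against 50.8% of the 12864 genes tested. Their median log2 difference was 0.13, against 0.0040 for all genes. By limma with Benjamini-Hochberg adjustment over all genes, 0 members passed adjusted p 0.05, as did 0 of all genes (0%), and the adjusted p of the members was 0.997 or more. At unadjusted p 0.05 there were 4 members, the higher Lst1, Spi1 and Adgre1 and the lower Gpnmb, against 4.3% of all genes. By direction this is 3 higher and 1 lower member, against 2.26% and 2.04% of all genes. The median 95% confidence interval of a member reached 0.41 log2 units to either side, so shifts of the size seen for most members were not detectable with these arrays.

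**Figure D1:**
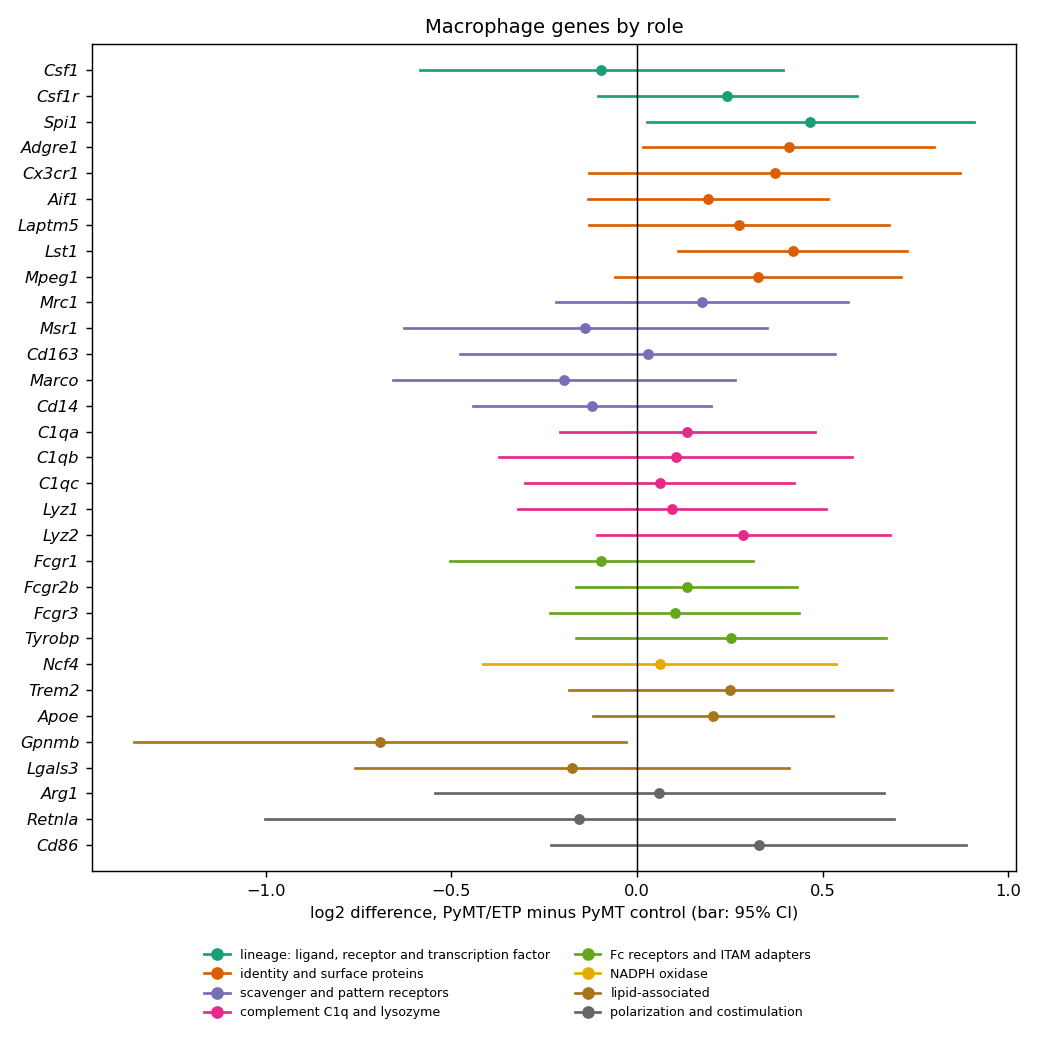
Log2 difference of each of the 31 tested macrophage genes, PyMT/ETP minus PyMT control (points), with its unadjusted 95% confidence interval (bars), coloured by role. Of the points, 23 lie above 0, and the intervals of Lst1, Spi1, Adgre1 and Gpnmb do not reach 0.

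A single tumour, PyMT/ETP replicate 1, held much of this shift. It was the highest of the 6 arrays for 19 of the 31 members (61.3%), against 18.3% of all genes, while PyMT/ETP replicates 2 and 3 were highest for 1 and 2 members. The mean deviation of the members from their 6-array means was 0.22, -0.0026 and -0.053 in PyMT/ETP replicates 1, 2 and 3, against -0.074, -0.0036 and -0.082 in PyMT control replicates 1, 2 and 3. Without PyMT/ETP replicate 1, 20 of 31 members were positive and the median was 0.078, and without PyMT/ETP replicate 3, 25 were positive and the median was 0.22. In bulk tissue, more macrophages and more RNA per macrophage cannot be told apart.

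**Figure D2:**
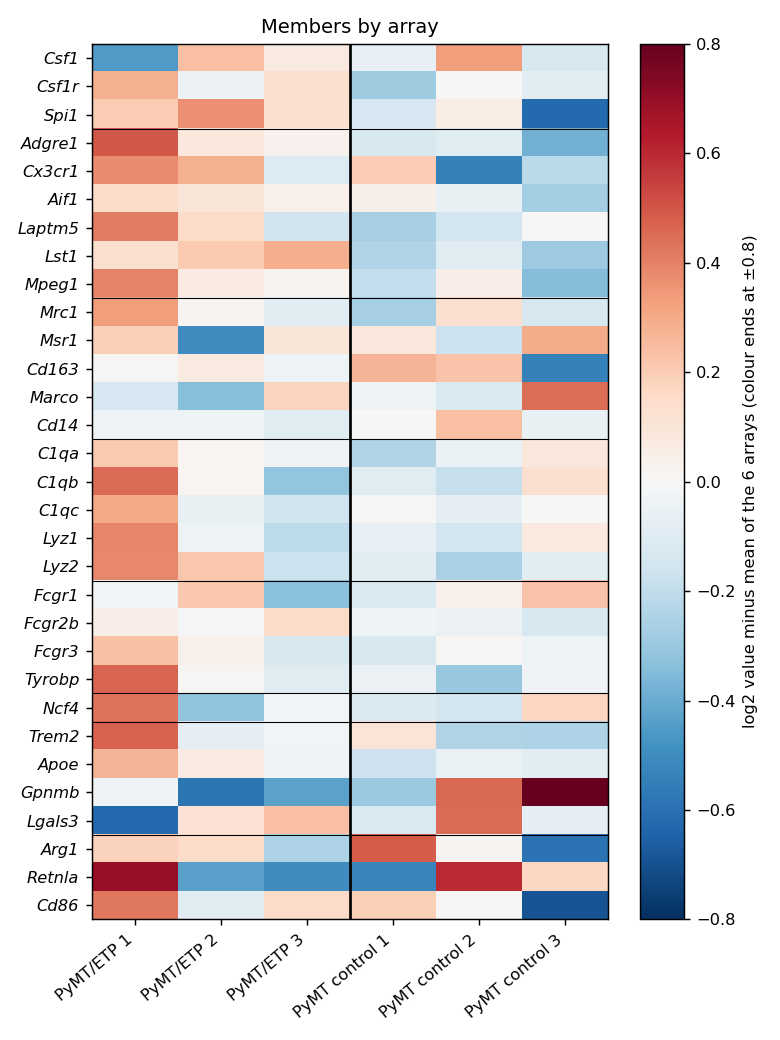
Log2 value of each tested member on each array minus its mean over the 6 arrays, with the 3 PyMT/ETP arrays left of the line and the 3 PyMT control arrays right of it, and rows grouped by role. PyMT/ETP replicate 1 is the highest array for 19 of the 31 genes.

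Markers of other cells were not even between the arrays either. In PyMT/ETP replicate 1 the mean deviation was 0.25 for 7 pan-leukocyte genes, 0.60 for 6 fibroblast genes and 0.71 for 3 tested skeletal muscle genes, the highest of the 6 arrays for each list. The summed corrected intensity of the fibroblast genes ranged from 2763 to 5999 in PyMT/ETP and from 3336 to 4145 in PyMT control tumours, and that of the muscle genes from 279 to 861 in PyMT/ETP and from 315 to 370 in PyMT control tumours. The 4 tested keratinocyte genes stood at 1.43 in PyMT control replicate 3 and 0.43 in replicate 2, against -0.42 or less in every PyMT/ETP tumour. Epithelial keratins (Krt8, Krt18 and Krt19) were above background on every array. The part of these cells in the macrophage values was not tested.

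**Figure D3:**
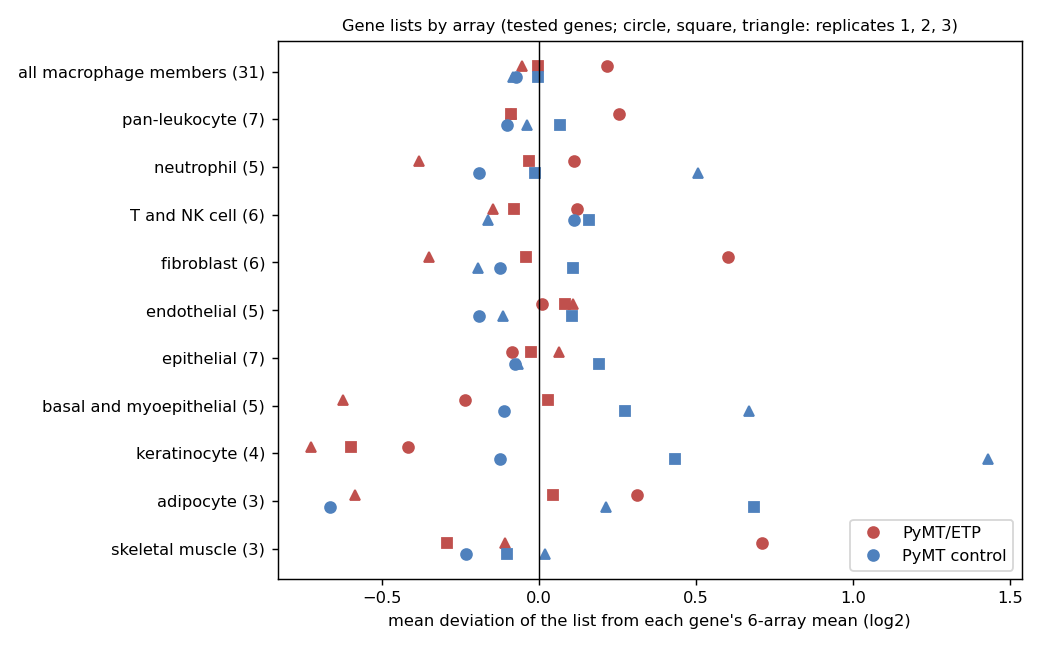
Mean deviation of each gene list from its genes' 6-array means (log2), by array, with the number of tested genes in brackets; PyMT/ETP arrays are red and PyMT control arrays blue. PyMT/ETP replicate 1 is the highest array for the macrophage, pan-leukocyte, fibroblast and skeletal muscle lists, and PyMT control replicate 3 for the keratinocyte list.

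Among the genes that set macrophage fate, the transcription factor and the receptor had positive differences, with no call. The ligand had a small negative one that did not keep its sign with 1 array left out. Spi1, whose product PU.1 drives macrophage gene programmes, was at 5.72, 5.88 and 5.64 in PyMT/ETP tumours, against 5.38, 5.57 and 4.89 in PyMT control tumours. The groups did not overlap, and the log2 difference was 0.47 (SE 0.19). It was 0.27 without PyMT control replicate 3, the lowest array, and 0.18 without background correction.

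Csf1r encodes the receptor tyrosine kinase for colony-stimulating factor 1. It was at 8.41, 8.08 and 8.26 in PyMT/ETP tumours, against 7.84, 8.13 and 8.04 in PyMT control tumours. The groups overlapped, since PyMT control replicate 2 was above PyMT/ETP replicate 2, and the log2 difference was 0.24 (SE 0.15). The dimmer Csf1r probe gave 0.29, and no array left out turned the sign. Csf1, the ligand, which tumour and stromal cells also make, was at 5.96, 6.65 and 6.48 in PyMT/ETP tumours, against 6.35, 6.75 and 6.29 in PyMT control tumours. Its log2 difference was -0.10 (SE 0.21), and it was lowest in PyMT/ETP replicate 1, the array highest for most other members. The sign turned without PyMT/ETP replicate 1, to 0.11, and without PyMT control replicate 2, to 0.047.

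All 6 tested identity and surface genes had positive log2 differences, from 0.19 to 0.42, with a median of 0.35 and no call. Adgre1 encodes the F4/80 antigen used to stain mouse macrophages. Its brightest probe was at 9.12, 8.72 and 8.66 in PyMT/ETP tumours, against 8.50, 8.53 and 8.25 in PyMT control tumours. The groups did not overlap, with a log2 difference of 0.41 (SE 0.17), or 0.26 without PyMT/ETP replicate 1.

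The other Adgre1 probes had the same sign. The second was at 7.77, 7.53 and 7.71 in PyMT/ETP tumours, against 7.32, 7.59 and 7.16 in PyMT control tumours, with a difference of 0.32 and a control array inside the PyMT/ETP range. The third was above the background limit in all 3 PyMT/ETP tumours and in 0 PyMT control tumours. It thus passed the filter only through the PyMT/ETP tumours, which favours a positive sign, and its sign is no separate support. Against the background limit this probe was at least 1.13-fold higher in PyMT/ETP tumours (adjusted p 0.9998 over all probes in limma's test).

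Lst1, a small transmembrane protein of myeloid cells, had the smallest unadjusted p of the members. It was at 7.34, 7.42 and 7.50 in PyMT/ETP tumours, against 6.97, 7.11 and 6.92 in PyMT control tumours. Each PyMT/ETP tumour was above each control, and PyMT/ETP replicate 1 was the lowest of its group here. The log2 difference was 0.42 (SE 0.13), between 0.38 and 0.47 with any 1 array left out, and 0.28 without background correction.

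Groups that do not overlap, with PyMT/ETP higher, were seen for 5 of the 31 members (16.1%), Spi1, Adgre1, Lst1, Fcgr2b and Apoe, against 4.52% of all genes. Non-overlapping groups with PyMT/ETP lower were seen for 0 members, against 3.65% of all genes. An exact permutation test of 3 tumours against 3 cannot go below a two-sided p of 0.1.

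**Figure D4:**
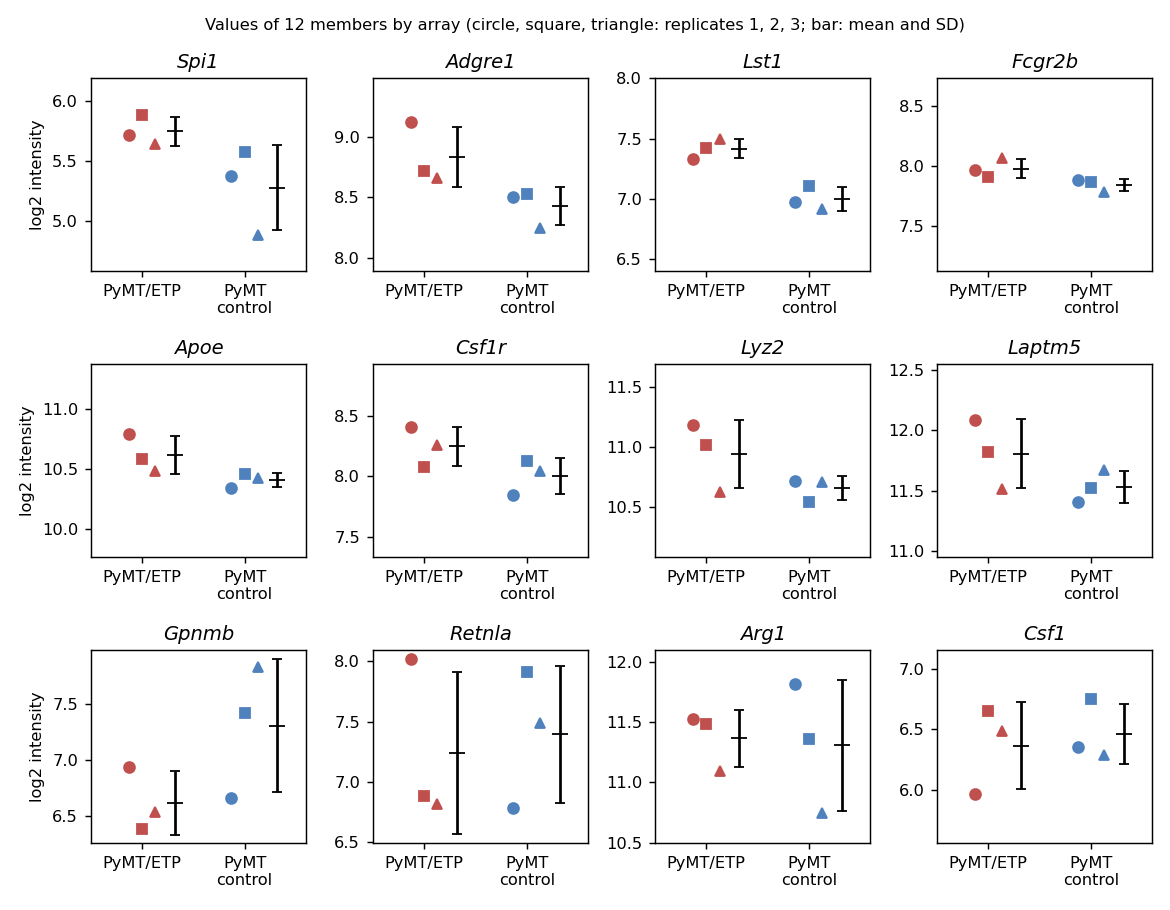
Log2 values of 12 members by array (circle, square and triangle for replicates 1, 2 and 3), with PyMT/ETP in red left of PyMT control in blue and the mean and SD of each group in black (n = 3 each). The panels share no axis, and the groups are apart for Spi1, Adgre1, Lst1, Fcgr2b and Apoe and overlap for the other 7.

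The other identity genes overlapped between the groups. Mpeg1, which encodes the pore-forming protein perforin-2, was at 10.58, 10.24 and 10.21 in PyMT/ETP tumours, against 9.98, 10.23 and 9.83 in PyMT control tumours. Its difference was 0.33 (SE 0.17), and its dim second probe gave -0.0057. Cx3cr1, the fractalkine receptor, was at 7.54, 7.45 and 7.06 in PyMT/ETP tumours, against 7.37, 6.62 and 6.95 in PyMT control tumours, a difference of 0.37 (SE 0.22).

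Laptm5 encodes a lysosomal membrane protein of blood cells. It was at 12.09, 11.82 and 11.51 in PyMT/ETP tumours, against 11.40, 11.52 and 11.67 in PyMT control tumours, a difference of 0.27 (SE 0.18). Its PyMT/ETP values spread over a wider range than the groups differed by. Aif1, which encodes the actin-binding protein Iba1, was at 8.04, 7.99 and 7.93 in PyMT/ETP tumours, against 7.93, 7.83 and 7.62 in PyMT control tumours. Its difference was 0.19 (SE 0.14), and its other tested probes gave -0.043 and 0.087. Itgam, the CD11b integrin chain, was not well above background on any array, at 4.24, 4.38 and 4.29 in PyMT/ETP tumours and 4.36, 4.18 and 4.35 in PyMT control tumours.

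Scavenger and pattern receptors went both ways, with 2 of 5 positive and a median log2 difference of -0.12. Mrc1, the mannose receptor often read as a mark of alternatively activated macrophages, was at 7.98, 7.67 and 7.55 in PyMT/ETP tumours, against 7.38, 7.78 and 7.52 in PyMT control tumours. The difference was 0.17 (SE 0.17), or 0.050 without PyMT/ETP replicate 1. Cd163, the haemoglobin scavenger receptor, was nearly level, with a difference of 0.028 (SE 0.22). It was at 6.22 ± 0.06 in PyMT/ETP and 6.20 ± 0.46 in PyMT control tumours (SD, n = 3 each), with PyMT control replicate 3 the low one at 5.67.

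Cd14, the lipopolysaccharide co-receptor, was at 10.83, 10.84 and 10.78 in PyMT/ETP tumours, against 10.87, 11.12 and 10.82 in PyMT control tumours. The difference was -0.12 (SE 0.14), or -0.030 without PyMT control replicate 2. Msr1, scavenger receptor A, was dim, at 5.27, 4.58 and 5.17 in PyMT/ETP tumours and 5.16, 4.90 and 5.37 in PyMT control tumours. Marco, a scavenger receptor of some resident macrophages, was above background in 1 of 3 PyMT/ETP and 3 of 3 PyMT control tumours, with a difference of -0.20 (SE 0.20).

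The 3 chains of C1q, the first component of the classical complement pathway, which tissue macrophages make, did not differ beyond their spread. C1qa was at 8.37, 8.18 and 8.13 in PyMT/ETP tumours, against 7.92, 8.11 and 8.25 in PyMT control tumours. C1qb was at 10.32, 9.88 and 9.54 in PyMT/ETP tumours, against 9.77, 9.68 and 9.99 in PyMT control tumours. C1qc was at 10.01, 9.64 and 9.54 in PyMT/ETP tumours, against 9.68, 9.63 and 9.70 in PyMT control tumours. PyMT/ETP replicate 1 was the highest array for each chain. The log2 differences were 0.14, 0.10 and 0.06 (SE 0.15, 0.21 and 0.16), and C1qb and C1qc had -0.098 and -0.079 without PyMT/ETP replicate 1.

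The lysozyme genes Lyz1 and Lyz2 are neighbouring paralogs with closely similar transcripts, so a probe assigned to either may also bind the other, and their values are uncertain as gene values. The brightest Lyz2 probe was at 11.18, 11.02 and 10.63 in PyMT/ETP tumours, against 10.72, 10.54 and 10.71 in PyMT control tumours, a difference of 0.29 (SE 0.17). A second Lyz2 probe gave 0.34. PyMT/ETP replicates 1 and 2 were above the controls by the first probe and replicate 3 was among them.

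The brightest Lyz1 probe was at 13.51, 13.08 and 12.91 in PyMT/ETP tumours, against 13.05, 12.96 and 13.20 in PyMT control tumours, a difference of 0.10 (SE 0.18). A dimmer Lyz1 probe was at 6.58, 5.51 and 4.84 in PyMT/ETP tumours, against 5.67, 6.56 and 5.64 in PyMT control tumours, a difference of -0.31, and the third gave 0.0070. The Lyz1 probes thus disagreed, and with their mean in place of the brightest the Lyz1 difference was -0.071.

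Of the 9 genes with several tested probes, 5 (Aif1, Cd86, Fcgr2b, Lyz1 and Mpeg1) had probes of opposite sign and 4 (Adgre1, Arg1, Csf1r and Lyz2) did not. The negative values were -0.0031 for Fcgr2b, -0.0057 for Mpeg1, -0.027 for Cd86, -0.043 for Aif1 and -0.31 for Lyz1, each smaller in size than its SE. Over all 45 tested member probes, 32 (71.1%) were positive, against 52.2% of all 24893 tested probes, with a median of 0.10 against 0.0099. The positive ones include the dim Adgre1 probe that passed the filter only through the PyMT/ETP tumours.

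Fc receptors bind the constant part of antibodies, and Tyrobp and Fcer1g are the signalling adapters that carry their activating signals or those of related receptors. Fcgr2b, the inhibitory receptor, was at 7.96, 7.91 and 8.07 in PyMT/ETP tumours, against 7.88, 7.87 and 7.79 in PyMT control tumours. The groups did not overlap, by a narrow gap, and the difference was 0.13 (SE 0.13), with 0.034 and -0.0031 at its other tested probes. Tyrobp was at 8.14, 7.68 and 7.58 in PyMT/ETP tumours, against 7.62, 7.37 and 7.65 in PyMT control tumours. Its difference was 0.25 (SE 0.18), or 0.081 without PyMT/ETP replicate 1. Of the activating receptors, Fcgr3 had a difference of 0.10 (SE 0.15) and the dim Fcgr1, the high-affinity receptor, one of -0.10 (SE 0.18). Fcer1g was above background in 0 PyMT/ETP tumours and 1 PyMT control tumour and was not tested.

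The phagocyte NADPH oxidase makes superoxide, and little of it was measured. Ncf4, its p40 subunit, was at 7.72, 6.96 and 7.26 in PyMT/ETP tumours, against 7.17, 7.14 and 7.46 in PyMT control tumours, a difference of 0.06 (SE 0.21). The catalytic chain Cybb and the organiser Ncf1 were not tested. Each Cybb probe was above background in 1 PyMT/ETP tumour and 0 PyMT control tumours. One Ncf1 probe was above background in 0 PyMT/ETP tumours and 1 PyMT control tumour, and the other in none. The first was at 4.37, 4.40 and 4.30 in PyMT/ETP tumours, against 4.82, 4.56 and 4.54 in PyMT control tumours, so that the groups did not overlap, and no fold is given because the values lie near background.

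Genes linked to lipid-laden macrophages went both ways. Trem2, a lipid-sensing receptor that signals through Tyrobp, was at 8.10, 7.56 and 7.61 in PyMT/ETP tumours, against 7.75, 7.39 and 7.39 in PyMT control tumours, a difference of 0.25 (SE 0.19), or 0.078 without PyMT/ETP replicate 1. Apoe, the lipid carrier apolipoprotein E, was at 10.79, 10.58 and 10.48 in PyMT/ETP tumours, against 10.35, 10.46 and 10.43 in PyMT control tumours. The Apoe groups did not overlap, and the difference was 0.21 (SE 0.14), or 0.12 without PyMT/ETP replicate 1.

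Gpnmb, a transmembrane glycoprotein of macrophages that melanocytes and some tumour cells also make, had the largest difference of the tested members, and in the opposite direction. It was at 6.93, 6.38 and 6.54 in PyMT/ETP tumours, against 6.66, 7.42 and 7.84 in PyMT control tumours. PyMT control replicates 2 and 3 were above every other array, and replicate 1 was among the PyMT/ETP tumours. The log2 difference was -0.69 (SE 0.29), from -1.01 without PyMT control replicate 1 to -0.43 without replicate 3, and -0.048 without both replicates 2 and 3. PyMT control replicates 2 and 3 were also the highest arrays for the keratinocyte list, whose summed corrected intensity ranged from 502 to 536 in PyMT/ETP and from 668 to 2596 in PyMT control tumours. Of 5 melanocyte genes, chosen after the Gpnmb values were seen, only Pmel passed the filter, with a difference of -0.15 (SE 0.20), and Dct, Tyrp1, Tyr and Mlana did not. The part of skin or of its pigment cells in the Gpnmb values was not tested. Lgals3, the galactose-binding galectin-3, which epithelial cells also make, was at 11.49, 12.23 and 12.35 in PyMT/ETP tumours, against 11.99, 12.57 and 12.04 in PyMT control tumours, a difference of -0.18 (SE 0.26).

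Genes read as marks of macrophage polarization varied widely within each group. Arg1, the arginase of alternatively activated and tumour macrophages, was at 11.52, 11.48 and 11.09 in PyMT/ETP tumours, against 11.82, 11.36 and 10.74 in PyMT control tumours. The control tumours covered the whole PyMT/ETP range. The difference was 0.06 (SE 0.26), from -0.22 without PyMT control replicate 3 to 0.32 without replicate 1, and the second probe gave 0.13.

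Retnla, a secreted protein induced by interleukin-4 in mouse macrophages and also made in adipose tissue, was at 8.02, 6.88 and 6.82 in PyMT/ETP tumours, against 6.79, 7.91 and 7.48 in PyMT control tumours. PyMT/ETP replicate 1 and PyMT control replicates 2 and 3 were high, and the other 3 tumours low. The same 3 tumours had the highest mean deviations of the 3 tested adipocyte genes. These were 0.31, 0.043 and -0.59 in PyMT/ETP and -0.67, 0.68 and 0.21 in PyMT control replicates 1, 2 and 3. Adipoq and Lep were highest in these tumours. The dim Cidec was not, at 4.80 in PyMT/ETP replicate 1 and 4.81 in PyMT control replicate 3, against 5.07 and 4.86 in PyMT/ETP replicates 2 and 3. The part of fat tissue in the Retnla values was not tested. Cd86, a costimulatory ligand for T cells, was at 6.62, 6.11 and 6.34 in PyMT/ETP tumours, against 6.38, 6.20 and 5.50 in PyMT control tumours. The difference was 0.33 (SE 0.25), or 0.062 without the low PyMT control replicate 3, and its other probes gave 0.17 and -0.027.

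Related macrophage genes outside the list went both ways, and 0 of them passed the test. Of 12 genes of resident or alternatively activated macrophages, 11 were tested, 3 were positive and 8 negative, with a median log2 difference of -0.09. Without PyMT control replicate 2, 6 were positive and 5 negative, with a median of 0.0080. Stab1, the scavenger receptor stabilin-1, was at 8.77, 8.98 and 8.99 in PyMT/ETP tumours, against 9.04, 9.44 and 9.55 in PyMT control tumours, a difference of -0.43 (SE 0.17) with non-overlapping groups. Il4ra, the interleukin-4 receptor chain, was dim and had 0.35 (SE 0.14), and Cbr2, a carbonyl reductase, had -0.39 (SE 0.18).

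Macrophage transcription factors were divided, with 3 of 6 tested positive. Nr1h3, the sterol-sensing receptor LXR alpha, was at 6.23, 6.19 and 6.06 in PyMT/ETP tumours, against 6.28, 6.96 and 6.74 in PyMT control tumours, a difference of -0.50 (SE 0.19). All 3 PyMT/ETP tumours were below all controls. Klf4, which keratinocytes also express, had -0.67 (SE 0.31), and Irf8, needed for monocyte development, had 0.30 (SE 0.20).

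Monocyte and inflammatory genes were 3 positive and 4 negative of 7 tested, with a median of -0.13. Cd80, the second B7 ligand beside Cd86, was at 4.99, 4.73 and 4.97 in PyMT/ETP tumours, against 4.33, 4.22 and 4.44 in PyMT control tumours, where it was above background on 0 arrays. Cd80, counted among the 3 positive genes, thus passed the filter only through the PyMT/ETP tumours, which favours a positive sign. Against the background limit it was at least 1.22-fold higher in PyMT/ETP tumours, and limma gave it an adjusted p of 0.997. Fcgr4, a further activating Fc receptor, had a difference of 0.31 (SE 0.14) with non-overlapping groups. Ly6c1, which endothelial cells also express, had -0.24 (SE 0.20). The monocyte gene Ly6c2 had no probe assigned, and Ccr2 did not pass the filter.

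Genes for engulfing dying cells and microbes were 5 positive of 8 tested, with a median of 0.06. Besides receptors they include the secreted proteins Gas6, with 0.15 (SE 0.19), and Mfge8, with -0.010 (SE 0.15). Mertk, which recognises dying cells, had -0.43 (SE 0.20), Clec7a, the beta-glucan receptor dectin-1, 0.30 (SE 0.16) and Tlr2 0.25 (SE 0.18). Of the CSF receptor axis, 3 of 5 tested were positive, with a median of 0.05. Il34, the second ligand of the Csf1 receptor, had -0.33 (SE 0.19), Csf2rb 0.28 (SE 0.25) and Csf3 -0.27 (SE 0.19).

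Among 5 tested partners of the oxidase and of adapter signalling, 2 were positive, with a median of -0.07. Cyba, the oxidase's p22 chain, was lower, at 9.74, 9.71 and 9.54 in PyMT/ETP tumours, against 9.97, 10.11 and 9.79 in PyMT control tumours, a difference of -0.29 (SE 0.15) that did not pass. Trem1 had -0.31 (SE 0.30) and Vav1 0.13 (SE 0.22). Lipid-handling genes were 2 positive of 6 tested, with a median of -0.26. The lysosomal lipase Lipa had 0.40 (SE 0.16), Fabp5 -0.47 (SE 0.21) and Plin2, which coats lipid droplets, -0.32 (SE 0.23). Fabp5 was highest in PyMT control replicates 2 and 3, the arrays highest for the keratinocyte list. Lpl was highest in these and PyMT/ETP replicate 1, the arrays highest for the adipocyte list. The part of skin or fat tissue in the lipid-handling values was not tested. With 1 array left out, the lipid-handling median stayed negative, from -0.33 to -0.13. Other medians changed sign, from -0.17 to 0.020 for monocyte and inflammatory genes and from -0.094 to 0.062 for the CSF receptor axis. They ran from -0.024 to 0.12 for the engulfing genes and from -0.26 to 0.15 for the oxidase and adapter partners.

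Genes of leukocytes in general were 5 positive and 2 negative, with a median of 0.04, and went both ways. Cd53, a tetraspanin of leukocytes, had 0.45 (SE 0.22) and Cd52 0.19 (SE 0.28). Lcp1, the leukocyte actin-bundling protein, was at 8.87, 8.69 and 8.87 in PyMT/ETP tumours, against 9.26, 9.11 and 9.16 in PyMT control tumours, a difference of -0.36 (SE 0.14). Ptprc, the CD45 antigen, had 0.04 (SE 0.16) and was close to background. The median was -0.39 for 5 of 10 neutrophil genes tested, -0.08 for 6 of 9 T and NK cell genes and -0.06 for 4 of 8 dendritic cell genes. The neutrophil genes went both ways, with 2 positive and 3 negative. The dim Elane, of smallest unadjusted p, had 0.32 (SE 0.15) and Camp 0.11 (SE 0.24). S100a9 had -0.39 (SE 0.23), Ltf -0.52 (SE 0.32) and S100a8 -0.54 (SE 0.37). Without PyMT control replicate 3 the neutrophil median was -0.078, and without PyMT/ETP replicate 1 the median of the general leukocyte genes was -0.11. The dendritic cell median ran from -0.12 to 0.06 with 1 array left out, above 0 without PyMT/ETP replicate 2 or PyMT control replicate 1 or 2. The neutrophil genes summed to between 6597 and 14364 in PyMT/ETP and between 13208 and 17430 in PyMT control tumours. Ltf, lactoferrin, which mammary epithelium also makes, held from 63.4% to 85.1% of that sum, and the rest ranged from 1731 to 2680 in PyMT/ETP and from 2086 to 5990 in PyMT control tumours. Mpo, Ngp, Retnlg and Cxcr2 did not pass the filter.

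Of the 7 epithelial genes, 1 had non-overlapping groups with PyMT/ETP higher and 2 with PyMT/ETP lower, and none passed the test. The shares over all genes were 4.52% and 3.65%. Krt19 was at 8.66, 8.44 and 8.67 in PyMT/ETP tumours, against 8.78, 9.71 and 9.60 in PyMT control tumours, a difference of -0.78 (SE 0.24). Krt8 was at 13.29, 13.39 and 13.44 in PyMT/ETP tumours, against 13.62, 13.77 and 13.54 in PyMT control tumours, a difference of -0.27 (SE 0.14). Epcam, an adhesion protein of epithelial cells, was at 5.51, 5.53 and 5.96 in PyMT/ETP tumours, against 5.24, 5.26 and 5.29 in PyMT control tumours, a difference of 0.41 (SE 0.16). The groups overlapped for the keratin Krt18, with -0.10 (SE 0.19), and for Elf5, with -0.06 (SE 0.13). They also overlapped for Cdh1, with 0.15 (SE 0.15), and Esr1, with 0.43 (SE 0.23). The part of epithelial cells in the macrophage values was not tested.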

How the data were processed

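RNA of the 6 tumour samples was labelled with biotin and measured on Illumina bead arrays, as the labels' protocols give it. The deposited values are linear probe intensity values of 45281 probes, which the authors had made equal between arrays: sorted values differ by at most 0.19. No source used here gives the software or the normalization, and 24 columns from before normalization, named only by chip and position, were not used. The background (mode 86.1, SD 4.83) was estimated from the lowest 60% of values and corrected with limma's normexp model, 16 was added and log2 was taken, so differences of dim genes are understated. Of the probes, 34885 had 1 gene symbol, updated through the RefSeq gene table.

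Groups were compared with limma 3.58.1 in R 4.3.3 (lmFit, eBayes, two-sided) over all 24893 probes or 12864 genes, with Benjamini-Hochberg adjustment. The fit was tested on simulated data. Members, roles and lists were chosen with earlier results of these data known, so no test over a list is given. By the rule for named genes, values in every tumour are given for members with non-overlapping groups, a difference of at least 0.3 or disagreeing probes and for defining members, and up to 3 genes of smallest p for each other list. Alternatives changed background, offset, filter, probe choice, normalization, weights, trend, replicate block and arrays used. The replicate number was not used as a block in the main design.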

Additional observations from a re-analysis of the deposited data

How the results depend on the processing

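No macrophage gene was called under any of the 16 other settings run, and no macrophage probe under those in which probes were fitted (all but the one that averages probes within genes). With all 6 arrays and the same 31 members, 22 or 23 were positive, against 25 of 35 with no low-value filter and 23 of 29 at the stricter background limit, and the median log2 difference ran from 0.10 to 0.14. With 1 array left out, 20 to 26 members were positive, with a median from 0.078 to 0.22. Over all genes, 0 to 16 were called with 1 array left out, and 0 to 18 over all probes, the highest without PyMT control replicate 1. Without both PyMT control replicates 2 and 3, a setting chosen after seeing the data, 1 gene and 1 probe were called and 23 members were positive. Leaving out 1 array turned the sign of 11 members and either turned the difference or made it more than 1.5 times smaller for 28 of 31, with Csf1r, Fcgr2b and Lst1 the exceptions. Of the other planned settings, only the mean of all probes turned a sign, that of Lyz1. With that mean Fcgr2b had 0.055, and without background correction Lst1 had 0.28 and Spi1 0.18. Itgam, Fcer1g, Cybb and Ncf1 had a value only with no low-value filter. With the replicate block, the median stayed at 0.1333 and 0 genes were called. Deviations of same-numbered tumours had correlations of -0.065, -0.059 and -0.11, against -0.012 to 0.070 for tumours of different number. No pairing by number was seen, but a weak one could be missed with so few tumours. The number of arrays and the closeness of dim probes to background limit what can be seen.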

Other observations

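Lists of other cell types gave the following medians of the log2 difference, PyMT/ETP minus PyMT control, with no member called. Fibroblast genes were positive for 6 of 6 (median 0.11) and endothelial genes for 5 of 5 (0.10), each with small differences, the largest being 0.36 for Col1a2 and 0.26 for Kdr. Without PyMT/ETP replicate 1, 5 of the 6 fibroblast genes were negative (median -0.13), and the endothelial median ran from 0.069 without PyMT control replicate 1 to 0.25 without PyMT control replicate 2. Basal and myoepithelial genes were negative for 5 of 5 (median -0.46) and keratinocyte genes for 4 of 4 tested (-0.88), among them Krt5 and Krtdap. Epithelial genes were positive for 3 of 7 (median -0.06). Adipocyte genes were negative for 3 of 3 tested (-0.07) and skeletal muscle genes positive for 2 of 3 tested (0.29). Without PyMT/ETP replicate 1, 1 of the 3 skeletal muscle genes was positive (median -0.14), and the adipocyte median was 0.12 without PyMT/ETP replicate 3 and 0.19 without PyMT control replicate 2. The basal and keratinocyte genes were all negative whichever array was left out, with medians from -0.59 to -0.24 and from -1.21 to -0.61. The medians of the epithelial, mast cell and B cell genes changed sign with 1 array left out, from -0.066 to 0.029, from -0.095 to 0.19 and from -0.29 to 0.31. Mast cell genes were positive for 2 of 4 tested (median 0.02) and B cell genes for 1 of 2 tested (-0.03).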
